A study of Drosophila melanogaster with 7 samples.

Results

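Ribosomal RNA (rRNA) genes and pseudogenes were followed in *Drosophila melanogaster* embryos at stage 5, the cellularizing blastoderm at zygotic genome activation. Members were all genes of the count table whose FlyBase symbol contains rRNA, which gave 136 of 17699 genes. The symbol also gave the class (pre-rRNA, 18S, 28S, 5.8S, 2S or 5S) and told genes from pseudogenes (Psi). Transcripts were counted in 3 libraries of HP1-KD embryos and 4 libraries of control embryos. HP1-KD embryos came from mothers in which HP1 (HP1a, encoded by *Su(var)2-5*) was depleted by RNA interference. These mothers came from a cross of a Gal4 driver line (males, Bloomington 7063) with the RNAi line Bloomington 33400 (females), and depletion was in their germ line. Control embryos are labelled wild type, Bloomington 36303, and whether their mothers carried the driver is not given. Flies of both groups were reared at 25 C, and embryos were staged by hand under oil. 1 tissue label of the knockdown samples reads wild type, in conflict with their titles and genotypes, which set the groups here. The number of embryos behind a library is not given, nor whether replicates came from separate collections, so p-values measure only the spread between these samples. The groups also differ in fly stock, so a difference in rDNA sequence or copy number between stocks and an effect of the knockdown cannot be told apart here.

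In the fly, the rDNA lies in tandem arrays in the heterochromatin of the X and Y chromosomes, within the nucleolus organizers. RNA polymerase I makes a long precursor from each unit. External and internal transcribed spacers are cut out of it, which releases 18S rRNA for the small ribosomal subunit and 5.8S, 2S and 28S rRNA for the large subunit. 5S rRNA, also of the large subunit, is made by RNA polymerase III from a separate cluster on chromosome 2R. Many rDNA copies are truncated or interrupted and are annotated as pseudogenes, and HP1 is a main protein of the heterochromatin around the arrays.

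Before zygotic transcription begins, the embryo lives on ribosomes stored by the mother. An rRNA count in a total RNA library therefore reads mostly mature, stable RNA, while counts on the spacers read the precursor. The libraries were made from total RNA with the TruSeq Stranded Total RNA protocol. Whether and how rRNA was removed is not given in the labels, so the levels below are levels in the libraries, and the amount in the embryo cannot be told apart from the share that a removal step would leave.

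By class, the table held 4 pre-rRNA genes, 3 18S genes, 2 28S genes, 4 5.8S genes, 4 2S genes and 96 5S genes. The 23 pseudogenes were 2 of 18S, 10 of 28S, 4 of 5.8S, 3 of 2S and 4 of 5S. In dm6, 19 members lie on the unplaced rDNA scaffold and 17 on chromosome X. The 100 5S copies lie on the minus strand of 2R between 19729562 and 19766278. Of the 136 members, 55 had a count in at least 1 library and 81 had none, among them 78 5S genes. Only 26 members passed the filter on low counts and were tested, all of them 18S, 28S, 5.8S or pre-rRNA copies. A member low in control embryos could pass through its level in HP1-KD embryos alone.

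The 4 precursors overlap 14 other members. In all 28 pairs of a precursor and a library the precursor held at least the sum of its nested genes, and values moved in steps of 0.5 without finer fractions. A read in a nested gene thus counted for both genes. Copies of a class are also nearly identical, so a single copy's count depends on how reads were shared between copies, which is uncertain here. Sums over a class do not depend on the sharing within that class, but they do depend on reads shared between its genes and pseudogenes and on any reads discarded for matching several copies. No sequences are shown.

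The deposited counts per library ranged from 8678092 to 16983585.5. *Su(var)2-5* (FBgn0003607) had 161, 198 and 174 counts per 1000000 counts outside rRNA genes (written CPM below) in HP1-KD libraries 1 to 3, against 370, 443, 543 and 452 in control libraries 1 to 4. The groups did not overlap, and the HP1-KD mean was 39.3% of the control mean (log2 fold change −1.38, SE 0.15, adjusted p = 0.00231 by edgeR's quasi-likelihood test with Benjamini-Hochberg adjustment over all genes). The depletion was therefore partial at the transcript level. All 11 stage 5 zygotic markers found in the table had at least 3 counts in every library, and their summed level was 1623 to 2262 CPM in HP1-KD and 2531 to 2718 in control. The sum was thus lower in HP1-KD without overlap, and *Sry-alpha* was its largest part, with 773 to 1506 CPM. *Sry-alpha* itself overlapped between the groups, with 1202 in HP1-KD 2 and 1156 in control 1. Of the single markers only *ftz*, *Kr* and *gt* were lower in every HP1-KD library than in every control library. The others overlapped, and *nullo* (16.8), *bnk* (89.5) and *zen* (99.2) were lowest in control 3. Summed maternal RNAs (3 genes found) ran from 1104 to 1334 in HP1-KD and from 453 to 1240 in control. Pole cell markers (2 genes found) summed to 266 to 365 in HP1-KD and 112 to 315 in control. Late embryo markers (4 genes found) summed to 13.8 to 32.6 in HP1-KD and 15.5 to 146 in control. Control 3 had the lowest maternal and pole cell sums and the highest late embryo sum, nearly all from *elav*. Whether its embryos differed in stage was not tested. Of the 6 follicle cell and adult female markers none reached 3 counts in every library, and their sum was 632 CPM in HP1-KD 1 but at most 7.91 in any other library. This sum was 1.21 in HP1-KD 3. Whether such tissue bears on the rRNA share of any library was not tested.

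Within each group 1 library stood apart in rRNA. rRNA genes took 80.7%, 37.3% and 79.1% of all counts in HP1-KD libraries 1 to 3, against 47.2%, 15.3%, 18.1% and 17.2% in control libraries 1 to 4. HP1-KD 2 was thus low in its group and control 1 high in its own, and HP1-KD 2 lay below control 1. The mean share was 65.7% ± 24.6 (SD, n = 3) in HP1-KD and 24.5% ± 15.2 (SD, n = 4) in control, so the groups overlapped. Wilson intervals of 95% were narrow, for example 37.2% to 37.3% in HP1-KD 2 and 47.2% to 47.3% in control 1. They cover counting error only, since reads carried no molecular identifiers, and the spread between libraries was far wider. With each read of a precursor counted once, the shares were 69.5%, 23.9% and 67.3% in HP1-KD and 33.2%, 9.15%, 10.9% and 10.4% in control.

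**Figure D1:**
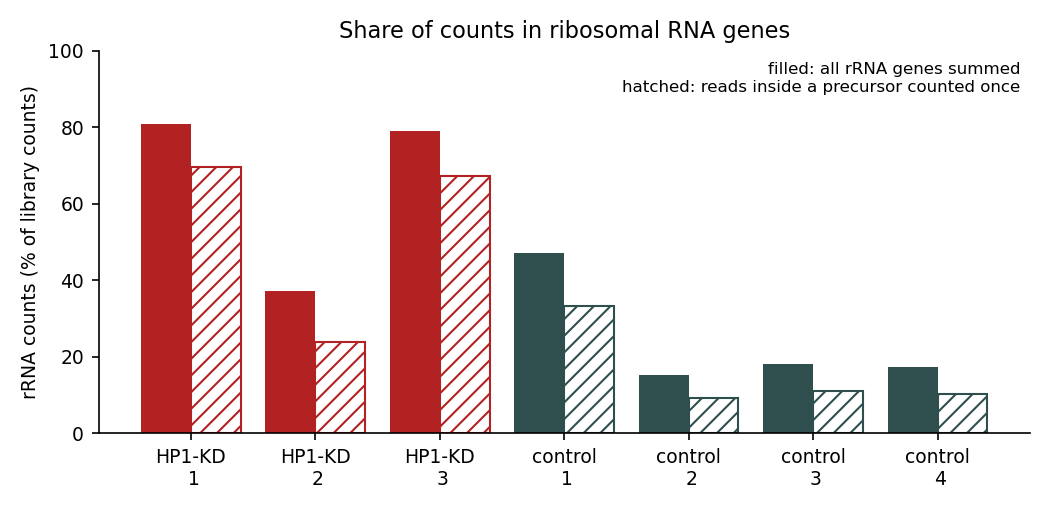
Share of each library's counts that fell in rRNA genes, in % of counts, for 3 HP1-KD and 4 control libraries. Filled bars sum all rRNA genes and hatched bars count each read inside a precursor once. HP1-KD 2 (37.3%) lies below control 1 (47.2%), while the other HP1-KD libraries lie above every control library.

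Since rRNA filled so different a part of each library, the levels of rRNA classes are given per 1000 counts outside rRNA genes. Counts outside rRNA genes numbered 3272009.5, 5443432 and 3295814 in HP1-KD, against 7324415.5, 9252760, 11775952 and 10177456.5 in control. In a bulk sample fewer cells of a type and less RNA per cell cannot be told apart, and a level on this scale also moves when the other RNAs move.

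18S rRNA, the RNA core of the small subunit, showed the widest gap between the groups among the abundant classes. The 3 18S genes summed to 372, 8.65 and 288 per 1000 in HP1-KD, against 2.04, 0.210, 0.149 and 0.180 in control. Every HP1-KD library lay above every control library, by 4.23 times at the nearest pair of HP1-KD 2 and control 1. The mean was 223 ± 190.2 (SD, n = 3) in HP1-KD and 0.646 ± 0.933 (SD, n = 4) in control. The 2 18S pseudogenes summed to 94.3, 3.02 and 71.5 per 1000 in HP1-KD and to 2.41, 0.200, 0.171 and 0.208 in control, again without overlap. No p-value is given for these sums, because they are totals over the members.

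28S rRNA, which holds the peptidyl transferase centre of the large subunit, was abundant in every library. The 2 28S genes summed to 1443, 266 and 1373 per 1000 in HP1-KD, against 387, 78.6, 96.3 and 91.0 in control. HP1-KD 2 lay below control 1, so the groups overlapped. The mean was 1027 ± 660.2 in HP1-KD (SD, n = 3) and 163 ± 149 in control (SD, n = 4), a ratio of means of 6.29. The 10 28S pseudogenes summed to 368, 35.7 and 321 per 1000 in HP1-KD and to 104, 21.2, 25.5 and 23.8 in control, which also overlapped. The 4 precursors, which hold the reads of the nested 18S and 28S genes as well, summed to 1911, 281 and 1738 per 1000 in HP1-KD, against 399, 80.6, 98.4 and 92.8 in control.

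The small RNAs of the large subunit took few counts. The 4 5.8S genes, whose RNA pairs with 28S rRNA, summed to 1519, 51 and 1045.5 deposited counts in HP1-KD, against 30, 16.5, 32 and 23 in control. Per 1000 counts outside rRNA genes the HP1-KD libraries had 0.464, 0.00937 and 0.317 and the control libraries 0.00410, 0.00178, 0.00272 and 0.00226, so the groups did not overlap. The 5.8S pseudogenes summed to 1.89, 0.0942 and 1.00 per 1000 in HP1-KD and to 0.306, 0.191, 0.138 and 0.129 in control, with HP1-KD 2 below every control library. 2S rRNA, a short RNA particular to flies and their relatives, had 25, 14 and 18 counts over its 4 genes in HP1-KD and 6, 1, 11 and 4 in control. Of the 2S pseudogenes only 2SrRNA-Psi:CR45858 had any count, 1 in HP1-KD 2.

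5S rRNA was close to undetected. The 96 5S genes together had 25, 6 and 8.5 counts in HP1-KD, against 1, 1, 2 and 5 in control. The 3 copies with the highest mean count were 5SrRNA:CR33441, 5SrRNA:CR33451 and 5SrRNA-Psi:CR33363. 5SrRNA:CR33441 had 13, 1 and 1 counts in HP1-KD and 0.5, 0, 1 and 3 in control. 5SrRNA:CR33451 had 5, 2 and 1.5 counts in HP1-KD and 0 in every control library. 5SrRNA-Psi:CR33363 had 2, 1 and 3 counts in HP1-KD and 0, 0, 1.5 and 1 in control. Counts fell on 11, 9 and 11 5S copies in HP1-KD libraries and on 2, 1, 5 and 5 in control libraries. The control libraries held more counts outside rRNA genes, while in total count HP1-KD 1 and 3 were the largest libraries and HP1-KD 2 the smallest. Whether depth bears on these numbers was not tested. A count of 0 allows up to 3 counts, or 0.551 to 0.917 CPM in HP1-KD and 0.255 to 0.410 in control. This limit holds only for reads that could be assigned to a copy. Any 5S reads discarded for matching several copies would leave a 0 as well. No 5S copy passed the filter, so none was tested.

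**Figure D2:**
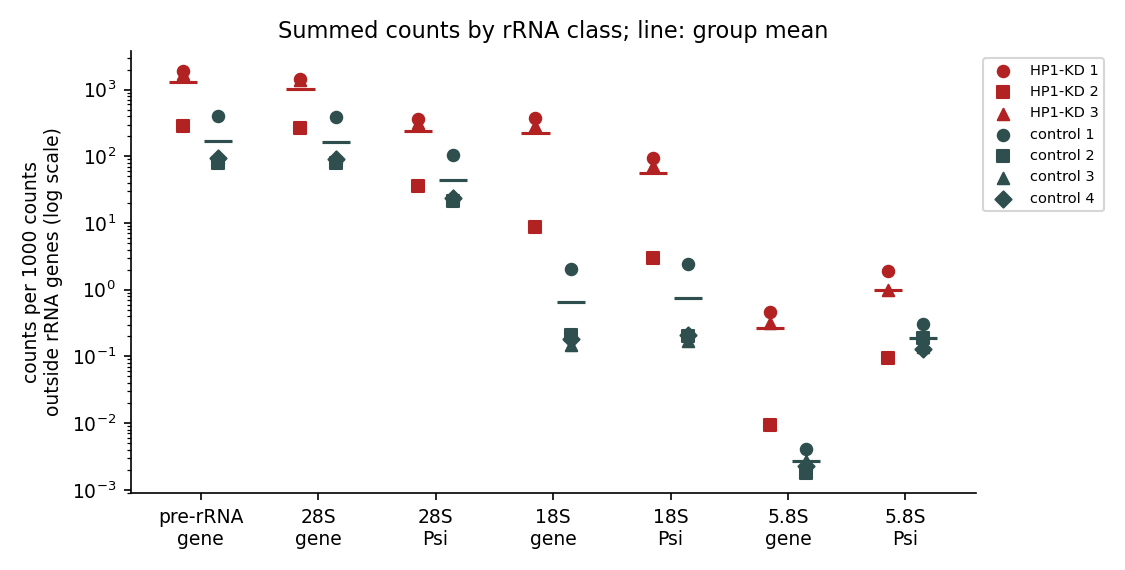
Summed counts of 7 rRNA classes per 1000 counts outside rRNA genes (log axis), with 1 point per library, HP1-KD left of control, and a line at each group mean. The 18S and 5.8S genes and the 18S pseudogenes separate the groups, while in 28S and pre-rRNA control 1 lies above HP1-KD 2.

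The balance between the 2 large rRNAs therefore differed between the groups. Counts of 28S genes were 3.87, 30.7 and 4.78 times those of 18S genes in HP1-KD, against 189, 374, 646 and 504 times in control. Within the longest annotated unit, pre-rRNA:CR45847, and per kb of gene, 28SrRNA:CR45844 had 0.976, 6.34 and 1.14 times the level of 18SrRNA:CR45841 in HP1-KD and 46.3, 95.5, 164 and 109 times in control. In HP1-KD 1 and 3 both RNAs of this unit thus stood at close to equal levels per kb, while 18S was at least 46.3 times lower than 28S in every control library. HP1-KD 2, whose rRNA share was below that of control 1, still had a ratio below that of control 1. As a share of rRNA counts, 18S genes made up 8.88%, 1.46% and 7.58% in HP1-KD and 0.229%, 0.116%, 0.0676% and 0.0868% in control. 28S genes made up 34.4%, 44.7% and 36.2% in HP1-KD and a narrow 43.3% to 43.7% in control.

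Single copies were compared in a fit over all 8008 genes that passed the filter. Of the 26 members tested, 13 rose in HP1-KD embryos and none fell, at an adjusted p under 0.05 (edgeR's quasi-likelihood test). Only 19 of the 26 had at least 10 counts in every library, and the others were all among the 13. A member low in control embryos could enter the fit through its HP1-KD level alone, and could then hardly be called lower. The number called and the median below therefore lean in part on the filter. With this minimum as the filter, no member was called lower either. Over all genes tested 8.59% were called, 3.7% higher and 4.9% lower. In CPM, every HP1-KD library lay above every control library for 12 of the 26 members, where 16.8% of all genes tested did so. For the other 14 the groups overlapped. The median log2 fold change of the 26 was 5.36 and that of all genes tested −0.03, but many of the 26 overlap or share reads and are not separate measurements. At an unadjusted p under 0.05 none of them was lower, and neither DESeq2 nor limma-voom called any lower.

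The count of members called rested on single libraries. It was 3 without HP1-KD 1, 15 without HP1-KD 2, 0 without HP1-KD 3, 23 without control 1, 4 without control 2, 13 without control 3 and 1 without control 4. Without both libraries that stood apart in rRNA, HP1-KD 2 and control 1, all 26 were called higher, where 1.95% of all genes were. These 2 libraries were chosen by their rRNA shares, which ran against the difference between the groups, so the choice itself favours higher calls among rRNA genes and the count is no support for a rise. It leaves 2 HP1-KD and 3 control libraries.

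All 3 18S genes, on the plus strand of the rDNA scaffold and 1995 bp long, rose. 18SrRNA:CR45841 (67668 to 69662) had 298, 7.60 and 229 per 1000 in HP1-KD, against 1.94, 0.176, 0.144 and 0.174 in control (log2 fold change 8.14, SE 1.65, adjusted p = 0.0262 by edgeR). 18SrRNA:CR45838 (55965 to 57959) had 61.1, 0.904 and 49.1 per 1000 in HP1-KD and 0.0911, 0.00503, 0.00471 and 0.00580 in control (10.40, SE 1.98, adjusted p = 0.0210). Neither gene's groups overlapped, and control 1 was the highest control library for both. 18SrRNA:CR41548 (43484 to 45478) had 13.5, 0.143 and 9.50 per 1000 in HP1-KD and 0.0102, 0.0296, 0.000679 and 0.00108 in control (9.53, SE 1.87, adjusted p = 0.0236). For this copy control 2, not control 1, was the highest control library.

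Neither 28S gene passed the test. 28SrRNA:CR45837 (rDNA scaffold, 46771 to 49485) had 864, 170 and 852 per 1000 in HP1-KD, against 208, 45.2, 49.5 and 53.5 in control (log2 fold change 2.77, SE 0.82, adjusted p = 0.0760 by edgeR). 28SrRNA:CR45844 (70955 to 74924) had 578, 95.9 and 521 per 1000 in HP1-KD and 179, 33.4, 46.8 and 37.5 in control (2.37, SE 0.84, adjusted p = 0.112). Both were above all control libraries in HP1-KD 1 and 3 and below control 1 in HP1-KD 2. Whether the rise of the 18S genes was larger than that of the 28S genes was not tested in a model, and the ratios above are its description.

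The 4 5.8S genes, each 123 bp long, were called higher, from control levels of a few counts. None had at least 10 counts in every library, so they could enter the fit through HP1-KD alone and could hardly be called lower. Over all genes tested, 3.7% were called higher. With 1 library left out at a time, 5.8SrRNA:CR45852 was tested in 3 of 7 fits and called in 1. 5.8SrRNA:CR45839 (rDNA scaffold, 58654 to 58776) had 792.5, 23.5 and 510.5 counts in HP1-KD, against 12.5, 6.5, 13 and 6 in control (log2 fold change 7.04, SE 1.19, adjusted p = 0.0140 by edgeR). 5.8SrRNA:CR45842 (70389 to 70511) had 354, 7 and 291.5 counts in HP1-KD and 4, 4.5, 7.5 and 5.5 in control (6.77, SE 1.22, adjusted p = 0.0175). 5.8SrRNA:CR40454, on the minus strand of X (23280155 to 23280277), had 229, 16 and 140.5 counts in HP1-KD and 4, 1, 1 and 5 in control (6.92, SE 1.10, adjusted p = 0.0112). 5.8SrRNA:CR45852 (46205 to 46327) had 143.5, 4.5 and 103 counts in HP1-KD and 9.5, 4.5, 10.5 and 6.5 in control (4.92, SE 1.07, adjusted p = 0.0322). Per 1000 counts outside rRNA genes, HP1-KD 2 lay within the control range for 5.8SrRNA:CR45852 and above it for the others.

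The 4 2S genes stayed below the filter. 2SrRNA:CR45836 had 9.5, 11.5 and 10.5 counts in HP1-KD and 6, 0, 10.5 and 3 in control. 2SrRNA:CR45840 had 13.5, 1.5 and 6.5 counts in HP1-KD and 0 in all 4 control libraries. 2SrRNA:CR45843 had 2, 1 and 1 counts in HP1-KD and 0, 0.5, 0.5 and 0.5 in control, and 2SrRNA:CR45864, on X, had counts only in control 2 and 4, at 0.5 each. Each of these genes is 30 bp long, and no fold change is given for them.

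**Figure D3:**
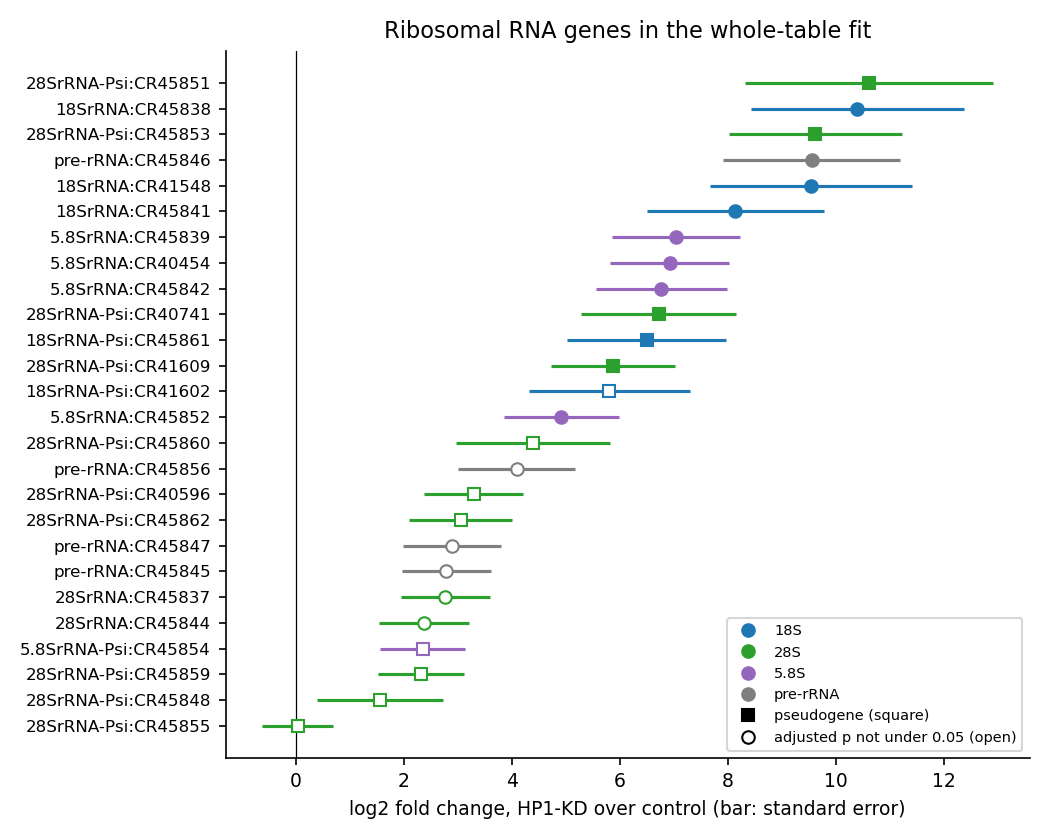
Log2 fold change of HP1-KD over control for the 26 rRNA genes and pseudogenes tested, with standard errors (3 HP1-KD and 4 control libraries). Colours mark classes, squares mark pseudogenes and filled symbols mark an adjusted p under 0.05, which 13 members reached. The fitted value of 28SrRNA-Psi:CR45853 rests on control libraries at or near 0 counts and depends on the fit's prior count.

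The pseudogenes were uneven among themselves. Of the 18S pseudogenes, 18SrRNA-Psi:CR45861 (X, 23280998 to 23282931) had 57.5, 1.97 and 42.3 per 1000 in HP1-KD, against 1.16, 0.108, 0.0824 and 0.102 in control, and rose (log2 fold change 6.49, SE 1.48, adjusted p = 0.0374 by edgeR). 18SrRNA-Psi:CR41602 (X, 23211192 to 23213166) had 36.8, 1.05 and 29.1 per 1000 in HP1-KD and 1.25, 0.0913, 0.0891 and 0.106 in control. It missed the threshold (5.81, SE 1.49, adjusted p = 0.0517), and HP1-KD 2 lay below control 1. Counts on 18S pseudogenes were 0.253, 0.349 and 0.249 times those on 18S genes in HP1-KD and 1.18, 0.951, 1.15 and 1.15 times in control, without overlap.

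Of the 10 28S pseudogenes, 4 rose and 6 did not pass the test. 28SrRNA-Psi:CR40741 (X, 23239718 to 23240975) had 51.9, 1.81 and 37.6 per 1000 in HP1-KD, against 0.860, 0.0916, 0.0768 and 0.0881 in control (log2 fold change 6.72, SE 1.43, adjusted p = 0.0307 by edgeR). 28SrRNA-Psi:CR41609 (X, 23261772 to 23262666) had 41.3, 1.36 and 33.3 per 1000 in HP1-KD and 0.986, 0.229, 0.241 and 0.214 in control (5.87, SE 1.15, adjusted p = 0.0236). 28SrRNA-Psi:CR45851 (rDNA scaffold, 35941 to 38740) had 111315.5, 2616.5 and 93266.5 deposited counts in HP1-KD, but only 364, 4, 11.5 and 13 in control (10.61, SE 2.30, adjusted p = 0.0322). 28SrRNA-Psi:CR45853 (X, 23200802 to 23201056) had 79, 8 and 54 counts in HP1-KD and 0.5, 0, 0 and 0 in control (adjusted p = 0.0338). None of these 4 overlapped between the groups, where 16.8% of all genes tested had every HP1-KD library above every control library. These 4 were picked by their calls from the same counts, so this is no separate support. 28SrRNA-Psi:CR45851 and 28SrRNA-Psi:CR45853 had fewer than 10 counts in at least 1 control library and could enter the fit through HP1-KD alone.

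The most abundant 28S pseudogenes did not pass. 28SrRNA-Psi:CR45859 (X, 23214452 to 23217140) had 119, 16.6 and 113 per 1000 in HP1-KD, against 37.2, 8.17, 9.76 and 9.56 in control (log2 fold change 2.31, SE 0.79, adjusted p = 0.105 by edgeR). 28SrRNA-Psi:CR45855 (X, 23205822 to 23206525) had 25.3, 6.14 and 24.2 per 1000 in HP1-KD and 38.5, 9.12, 12.3 and 10.3 in control (0.03, SE 0.66, adjusted p = 0.976). HP1-KD 2 had the lowest level of the 7 libraries in this copy and control 1 the highest. 28SrRNA-Psi:CR45862 (X, 23278007 to 23280010) had 37.8, 4.12 and 34.2 per 1000 in HP1-KD and 7.97, 1.38, 1.24 and 1.25 in control (3.05, SE 0.95, adjusted p = 0.0843). The remaining 28SrRNA-Psi:CR45848, 28SrRNA-Psi:CR40596 and 28SrRNA-Psi:CR45860 had log2 fold changes of 1.55, 3.29 and 4.40 and did not pass either (adjusted p = 0.395, 0.0650 and 0.0912). The single tested 5.8S pseudogene, 5.8SrRNA-Psi:CR45854 (X, 23205258 to 23205380), had 1.89, 0.0941 and 1.00 per 1000 in HP1-KD and 0.306, 0.190, 0.138 and 0.129 in control (2.35, SE 0.79, adjusted p = 0.0989).

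The other members of the 5.8S pseudogenes had between 0 and 11.5 counts per library. 5.8SrRNA-Psi:CR45863 had 11.5, 0.5 and 5.5 counts in HP1-KD and 2.5, 1.5, 1.5 and 0.5 in control. 5.8SrRNA-Psi:CR45849 had 4, 0 and 2.5 counts in HP1-KD and none in control. They were not tested.

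The reads of the 28S pseudogenes were distributed over different copies in the 2 groups. 28SrRNA-Psi:CR45855 took 6.88%, 17.2% and 7.55% of all 28S pseudogene counts in HP1-KD, against 37.1%, 43.0%, 48.3% and 43.4% in control. 28SrRNA-Psi:CR40741 took 14.1%, 5.07% and 11.7% in HP1-KD and 0.83%, 0.432%, 0.302% and 0.371% in control. 28SrRNA-Psi:CR41609 took 11.2%, 3.8% and 10.4% in HP1-KD and 0.899% to 1.08% in control. 28SrRNA-Psi:CR45851 took 9.25%, 1.34% and 8.82% in HP1-KD and at most 0.0479% in control. For these 4 copies the groups did not overlap, and HP1-KD 2 was the HP1-KD library nearest to control in each. The 4 are a choice from the copies of the class, and CR40741, CR41609 and CR45851 were already called higher from the same counts. Parts of a class are not independent, since a larger part for some copies leaves a smaller part for the others. The level of 28SrRNA-Psi:CR45855 itself had a log2 fold change of 0.03 (SE 0.66). 28SrRNA-Psi:CR45859 took a like part in both groups, with 32.5%, 46.5% and 35.4% in HP1-KD and 35.8% to 40.3% in control.

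The 28S and 18S genes were less uneven. 28SrRNA:CR45837 held 59.9%, 63.9% and 62.0% of 28S gene counts in HP1-KD, against 53.7%, 57.5%, 51.4% and 58.8% in control, so every HP1-KD library lay slightly higher. 18SrRNA:CR45841 held 80.0%, 87.9% and 79.6% of 18S gene counts in HP1-KD and 95%, 83.5%, 96.4% and 96.2% in control. Control 2 departed from its group because 18SrRNA:CR41548 took 14.1% of 18S gene counts there, and at most 0.599% in the other control libraries. Summed over copies, the 28S pseudogenes held 0.255, 0.135 and 0.234 times the counts of the 28S genes in HP1-KD and 0.261 to 0.270 times in control.

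**Figure D4:**
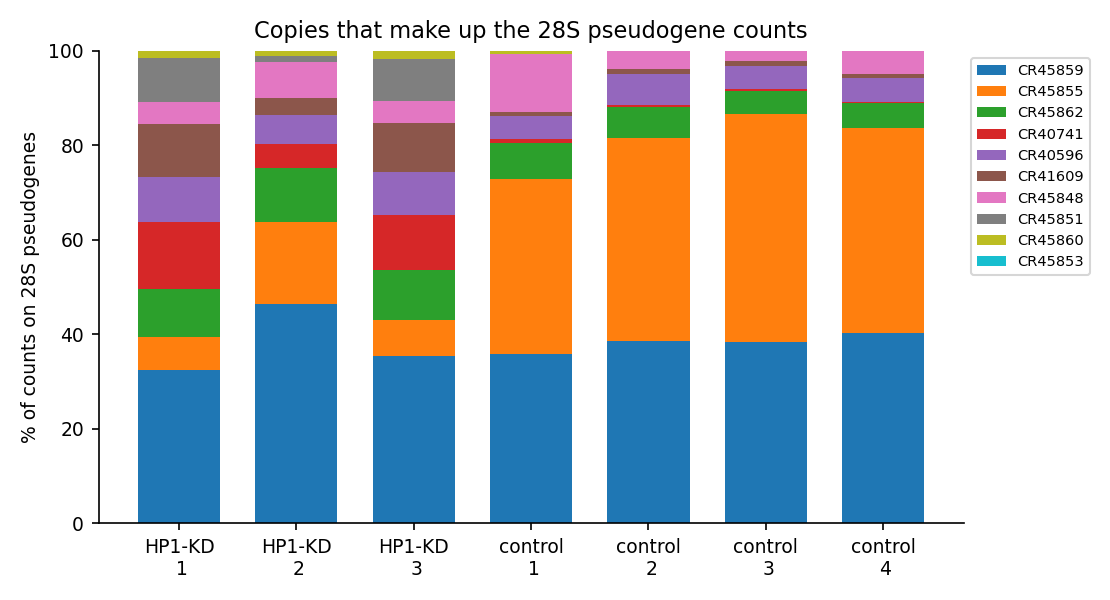
Part of the 28S pseudogene counts held by each of the 10 copies, in % of the counts of the class, for 3 HP1-KD and 4 control libraries. 28SrRNA-Psi:CR45855 holds 37.1% to 48.3% in control libraries and 6.88% to 17.2% in HP1-KD libraries, where CR40741, CR41609 and CR45851 take larger parts.

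Precursor counts as deposited followed the mature rRNA nested in them. pre-rRNA:CR45847 (rDNA scaffold, 66807 to 74924) had 877, 104 and 750.4 per 1000 in HP1-KD, against 181, 33.7, 47.4 and 37.9 in control (log2 fold change 2.89, SE 0.91, adjusted p = 0.0864 by edgeR). pre-rRNA:CR45845 (42623 to 49485) had 878, 170.2 and 862 per 1000 in HP1-KD and 208, 45.3, 49.6 and 53.5 in control (2.79, SE 0.82, adjusted p = 0.0756). pre-rRNA:CR45856, on the minus strand of X (23278007 to 23283731), had 95.5, 6.11 and 76.6 per 1000 in HP1-KD and 9.20, 1.52, 1.39 and 1.38 in control (4.09, SE 1.08, adjusted p = 0.0558). All 3 overlapped between the groups through control 1 and HP1-KD 2, and none passed the test. pre-rRNA:CR45846 (55104 to 59294), whose annotated part holds an 18S but no 28S gene, had 61.4, 0.927 and 49.3 per 1000 in HP1-KD and 0.132, 0.0125, 0.0304 and 0.0169 in control, and rose (9.55, SE 1.64, adjusted p = 0.0148).

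To set the precursor apart from mature rRNA, the counts of nested genes were subtracted from each precursor, which leaves its transcribed spacers (2000 bp in pre-rRNA:CR45845 and pre-rRNA:CR45847, 2043 bp in pre-rRNA:CR45846 and 1664 bp in pre-rRNA:CR45856). A read that spans a border with a nested gene may be subtracted as well, which would lower these counts. Reads shared from other copies, or reads of mature rRNA beyond an annotated end, would raise them. They are therefore estimates and no lower limit. Spacers held between 0.0312% and 0.161% of the summed precursor counts in HP1-KD and between 0.141% and 0.644% in control. Over all 4 units they came to 870, 453 and 543 CPM in HP1-KD, against 561, 261, 634 and 291 in control, and the groups overlapped.

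The spacers of single units did not move together. Those of pre-rRNA:CR45847 had 505, 290.4 and 276 CPM in HP1-KD, against 323, 190.5, 438 and 202 in control (log2 fold change 0.28, SE 0.35, adjusted p = 0.609 by edgeR, in a fit with precursors replaced by their spacers). Those of pre-rRNA:CR45845 had 241, 133 and 181 CPM in HP1-KD and 133, 35.1, 104 and 49.1 in control (1.16, SE 0.46, adjusted p = 0.145). Those of pre-rRNA:CR45846 had 102, 17.7 and 73.3 CPM in HP1-KD and 39.0, 6.81, 24.5 and 10.5 in control (1.63, SE 0.71, adjusted p = 0.176). None of these 3 passed the test, and all overlapped between the groups.

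On the X-linked unit the direction was the other one. The spacers of pre-rRNA:CR45856 had 21.1, 12.1 and 11.8 CPM in HP1-KD, against 65.8, 28.6, 67.3 and 29.3 in control, and every HP1-KD library lay below every control library. They fell (log2 fold change −1.71, SE 0.43, adjusted p = 0.0491 by edgeR), where 4.95% of all genes in that fit were called lower and 3.75% higher. The deposited spacer counts behind this were 69, 66 and 39 in HP1-KD and 482, 265, 793 and 298.5 in control. The call lies at the threshold and was lost in 10 of 16 alternatives, in which the direction stayed the same. In this unit, which holds 18S and 28S pseudogenes and a 5.8S gene, spacers thus fell while the nested 18SrRNA-Psi:CR45861 and 5.8SrRNA:CR40454 rose.

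Relative to the spacers of the same unit, 18S differed most. Per kb, 18SrRNA:CR45841 stood at 591, 26.2 and 832 times the level of the spacers of pre-rRNA:CR45847 in HP1-KD, against 6.04, 0.924, 0.329 and 0.861 times in control. In control 2, 3 and 4 the 18S gene was thus no more abundant per kb than the spacers of its own precursor. 28SrRNA:CR45844 stood at 577, 166 and 951 times the spacers in HP1-KD and at 279.9, 88.3, 53.8 and 93.5 times in control, and HP1-KD 2 lay below control 1. In pre-rRNA:CR45846 spacers made up 0.167%, 1.91% and 0.149% of the unit's counts in HP1-KD, but 29.6%, 54.3%, 80.8% and 62.1% in control.

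**Figure D5:**
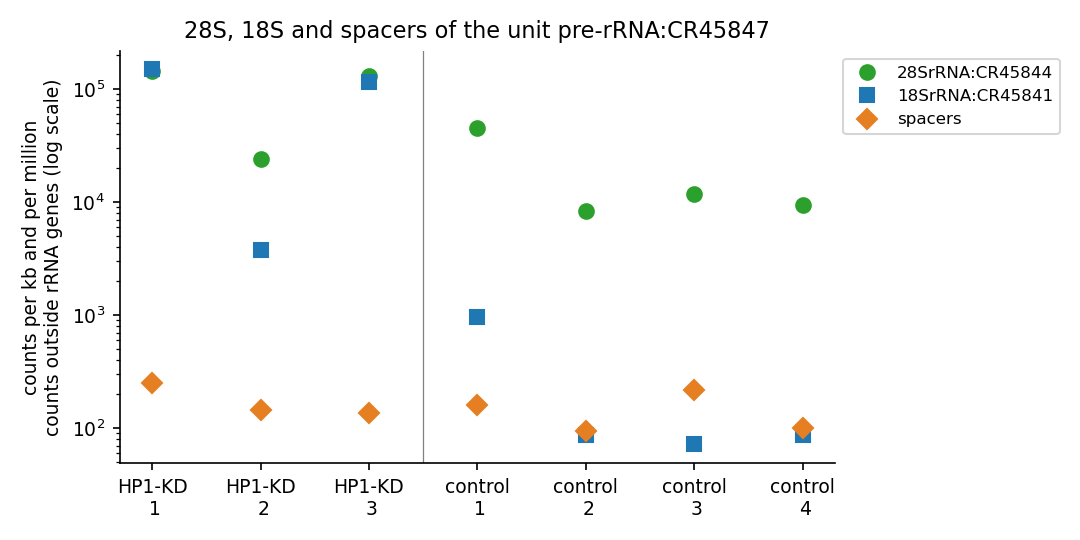
CPM per kb (counts per kb and 1000000 counts outside rRNA genes, log axis) on 28SrRNA:CR45844, 18SrRNA:CR45841 and the spacers of their precursor, pre-rRNA:CR45847, with 3 HP1-KD libraries left of 4 control libraries. In HP1-KD 1 and 3 18S lies level with 28S, and in control 2, 3 and 4 it lies at or below the spacers.

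Protein-coding genes of ribosome production were compared in the same fit. Of 13 genes of the list of RNA polymerase I and rDNA transcription tested, 3 rose (23.1%) and none fell, where 3.7% of all genes tested were called higher and 4.9% lower. The median log2 fold change was 0.27, beside −0.03 over all genes tested. *Polr1D*, a subunit shared by RNA polymerases I and III, had 12.4, 11.0 and 11.2 CPM in HP1-KD, against 4.85, 6.43, 5.22 and 4.96 in control (1.06, SE 0.22, adjusted p = 0.0264 by edgeR). *Nop60B*, which was placed in this list but is known as the pseudouridine synthase of box H/ACA particles, an enzyme of rRNA modification, had 439, 376 and 405 CPM in HP1-KD and 243, 317, 244 and 251 in control (0.60, SE 0.12, adjusted p = 0.0255). *udd*, a factor of RNA polymerase I initiation, had 40.3, 38.5 and 37.8 CPM in HP1-KD and 28.1, 25.3, 23.8 and 24.3 in control (0.58, SE 0.14, adjusted p = 0.0424). The groups did not overlap in any of the 3, where 16.8% of all genes tested had every HP1-KD library above every control library. The 3 were picked by their calls, so this is no separate support.

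Of 39 genes of pre-rRNA processing and the nucleolus tested, 3 rose (7.69%) and none fell, beside 3.7% of all genes higher and 4.9% lower, and the median was 0.08. The share called in either direction was below the 8.59% of all genes. The 3 were *Nop60B*, which stands in both lists and is counted in each, *Nph*, the fly nucleophosmin, and *Fib*, the methyltransferase fibrillarin. *Nph* had 223, 201 and 229 CPM in HP1-KD, against 150.05, 160.1, 117 and 134 in control (log2 fold change 0.60, SE 0.12, adjusted p = 0.0275 by edgeR). *Fib* had 111, 85.9 and 109 CPM in HP1-KD and 62.5, 57.6, 77.1 and 50.4 in control (0.68, SE 0.17, adjusted p = 0.0497). None of the 15 tested factors of 5S rRNA production and assembly passed in edgeR, and their median was −0.10. Of these, 3 had an unadjusted p under 0.05, and DESeq2 called 2 and limma-voom 0.

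Of the 85 tested genes of cytoplasmic ribosomal proteins, 8 rose (9.41%) and 4 fell (4.71%), and 73 did not pass, beside 3.7% of all genes higher and 4.9% lower. The share that fell was thus close to that of all genes, and the median was 0.07. This list was matched by symbol alone (RpL or RpS followed by a digit, RpLP, or *sta*). It therefore also holds genes named as like a ribosomal protein, such as *RpLP0-like*, *RpL24-like* and *RpL7-like*. *RpS19a*, a small subunit protein, had 830.1, 820 and 926 CPM in HP1-KD, against 489, 601, 570.4 and 516 in control (log2 fold change 0.63, SE 0.10, adjusted p = 0.0104 by edgeR). *RpL8* had 1277, 1310 and 1332 CPM in HP1-KD and 879, 948, 887 and 776 in control (0.55, SE 0.10, adjusted p = 0.0165). *RpL39*, a large subunit protein like *RpL8*, fell, with 559, 553 and 429 CPM in HP1-KD and 723, 930.2, 793 and 818 in control (−0.69, SE 0.14, adjusted p = 0.0277). Scaled by total count, which moves the median of all genes to −1.15, all 13 genes called higher in these lists turned negative and lay above that median, and the 4 called lower stayed negative. HP1-KD 2, the HP1-KD library low in rRNA, lay with the other HP1-KD libraries in all 3. When 1 library was left out at a time, calls ranged from 0 to 15 among the ribosomal proteins and from 0 to 3 in each of the other lists.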

How the data were processed

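For 3 HP1-KD and 4 control libraries the authors deposited unnormalized estimated counts by FlyBase gene, which come in steps of 0.5. The submitters' processing notes name STAR and dm6. The counting program, its strand setting and its handling of reads that match several copies are not given in the sources used here. Positions and symbols came from Ensembl release 115, and 139 of 17699 identifiers had no symbol. Of 138 rRNA symbols there, 136 were in the table, and mitochondrial rRNA (and every other gene in the list of mitochondrially encoded genes, of which the table held 0) was not analysed here. Members, lists, tests and alternatives were chosen with earlier results of these data known.

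Values were rounded and fitted with edgeR 4.0.16 in R 4.3.3 (filterByExpr, TMM factors, quasi-likelihood F-test, condition as the only term). Benjamini-Hochberg adjusted p-values under 0.05 over all 8008 genes tested were called. The standard error is the log2 fold change divided by the square root of F. Class sums, copy shares and spacer counts (a precursor minus its nested genes) were computed from unrounded counts. Named were every non-Psi rRNA gene outside 5S, every rRNA gene called, the 3 copies with the highest mean count in 5S and in each Psi class, *Su(var)2-5*, and up to 3 called genes with the lowest adjusted p in each list. 28SrRNA-Psi:CR40596, 28SrRNA-Psi:CR45848 and 28SrRNA-Psi:CR45860 were named after their values were seen. Of 44 names in the processing list and 15 in the polymerase I list, 39 and 13 were matched. A synonym match of RRP1 to the fly repair gene *Rrp1* was dropped.

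Alternatives were the size factors and Wald test of DESeq2 1.42.0, total count, scaling outside rRNA, filters, limma-voom (limma 3.58.1), a replicate block and each library left out. Depth was 8678092 to 16983585.5 counts, so 3 counts, taken as the limit that a count of 0 allows, were 0.255 to 0.917 counts per 1000000 counts outside rRNA genes.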

Additional observations from a re-analysis of the deposited data

Results flagged for a closer look

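Control 1 lay far from the other 3 control libraries in 26 of the 27 values singled out, measured by its gap to the nearest of them over the range of the group. Chance marks about 1 in 20 groups of 4 in this way, and these values share reads and are not independent. No value singled out belongs to an HP1-KD library, although HP1-KD 2 also stood apart in its group. Its rRNA share was 37.3%, against 80.7% and 79.1% in HP1-KD 1 and 3. The rRNA share of control 1 was 47.2%. Per 1000 counts outside rRNA genes its class sums were 2.04 for 18S genes, 2.41 for 18S pseudogenes, 387 for 28S genes, 104 for 28S pseudogenes and 399 for precursors. Per kb its 18SrRNA:CR45841 stood at 6.04 times the spacers of its unit.

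Among the 26 members tested, 19 were singled out for control 1. The genes, per 1000 counts outside rRNA genes, were 18SrRNA:CR45841 (1.94), 18SrRNA:CR45838 (0.0911), 28SrRNA:CR45837 (208), 28SrRNA:CR45844 (179), pre-rRNA:CR45845 (208), pre-rRNA:CR45846 (0.132), pre-rRNA:CR45847 (181) and pre-rRNA:CR45856 (9.20). The pseudogenes of 18S were 18SrRNA-Psi:CR41602 (1.25) and 18SrRNA-Psi:CR45861 (1.16). Those of 28S were CR40596 (4.92), CR40741 (0.860), CR41609 (0.986), CR45848 (12.7), CR45851 (0.0497), CR45855 (38.5), CR45859 (37.2), CR45860 (0.620) and CR45862 (7.97).

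Control 2 was singled out in 1 value, the ratio of 18S pseudogene to 18S gene counts, which was 0.951 there and 1.15 to 1.18 in the other control libraries.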

How the results depend on the processing

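The cause of the changes below was not tested. No member was called lower under any alternative. Against 13, the members called higher numbered 6 with at least 10 counts in every library (19 members tested), 20 by DESeq2's Wald test, 1 by limma-voom, 5 with a replicate block, 26 without HP1-KD 2 and control 1 together, and 0 to 23 with each library left out. Over all genes, against 296 higher and 392 lower, the counts were 31 and 1064 with total count, which moves the median log2 fold change of all genes to −1.15, 192 and 247 with at least 10 counts, 703 and 785 by the Wald test, 25 and 71 with the block, 160 and 164 without HP1-KD 2 and control 1, and 51 to 575 and 130 to 637 with each library left out. Same-numbered libraries correlated at 0.41, −0.13 and 0.06 in their deviations, so the numbers were not taken to pair them.

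28SrRNA-Psi:CR45855, with no call, turned to −1.34 with total count, −0.11 with the block and −0.27 to 0.78 with each library left out. Spacers of pre-rRNA:CR45847 turned to −0.63 with total count and ranged from −0.057 to 0.55 with each library left out. The log2 ratio of group means for 18S genes (8.43 on the scale used above) was 10.84 without HP1-KD 2 and control 1 5.58 as a share of rRNA counts and 7.84 to 10.27 with each library left out. For 28S genes (2.65) it was 3.99 without these, 2.33 to 3.53 with each library left out, 1.20 as a share of all counts and −0.18 as a share of rRNA counts, a share in which 28S pseudogenes (−0.58) and 5.8S pseudogenes (−1.18) turned too. That of the rRNA share itself (1.43) was 2.24 without the 2 libraries and 1.25 to 1.96 with each left out. Counts of a few per library limit 5S, 2S and most 5.8S values.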
